A study of Mus musculus with 16 samples.

Results

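Aminoacyl-tRNA synthetases are the enzymes that load each amino acid onto its transfer RNA before translation. The 36 members described here were the rows of the read count tables that carry a synthetase's gene name, out of 24539 genes in all. Of these, 20 encode cytosolic enzymes and 16 encode mitochondrial ones, whose names end in 2. All 36 passed the filter on low read counts and entered every comparison, although Mars2 had no reads in any library of ribosome-bound mRNA. Members were chosen by name and not by any measured value, though earlier results of these data were known when the list was made.

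Cytosolic synthetases charge the tRNAs used by ribosomes in the cell body, and several of them sit with the scaffold proteins Aimp1, Aimp2 and Eef1e1 in a large multi-synthetase complex. Mitochondrial synthetases are made from separate nuclear genes, are imported, and serve the ribosomes that translate the respiratory chain subunits encoded by mitochondrial DNA. Gars and Kars serve both compartments from a single gene and were counted as cytosolic. The transcription factor ATF4, which acts when amino acids run short, is known to induce many cytosolic synthetases.

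The tissue was liver of male C57BL/6 mice. HF mice received a high-fat diet and HB mice received the same kind of diet with Betaine, a methyl donor, for 8 weeks, and both were 16 weeks old at sampling. There was no group on ordinary chow, so every value below is set against a high-fat background. Total mRNA, mRNA attached to ribosomes with nascent chains (RNC), and fragments bound by an antibody against N6-methyladenosine (m6A) were each measured in 2 samples per diet. Per the labels, RNA of separate experiments was pooled before mRNA and RNC sequencing. The p-values then measure only the spread between pools, which may be technical.

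Gene reads ranged from 11437462 to 22492813 per mRNA library and from 5778439 to 8659310 per RNC library. The chi-square between the counts of the HB RNC pair, per degree of freedom, was 1.40, against 34.7 to 98.5 in the other pairs. That pair was therefore summed and counted as 1 sample. Hepatocyte markers were abundant, at a summed 73800 and 79200 CPM (reads of a gene scaled to library size) in HF mRNA and 106000 and 101000 in HB, and 0 of 6 were called between diets. Among all genes tested in total mRNA, 11.3% were called higher in HB and 10.1% lower. Red cell markers were called higher in HB for 3 of 5 tested genes, with summed levels of 412 and 350 CPM in HF against 602 and 1750 in HB. Macrophage markers were called higher for 2 of 6, Marco and Vsig4, at a summed 222 and 230 CPM in HF and 246 and 234 in HB. Clec4f, the most abundant of the 6 and the sole marker with a negative change, was not called (172 and 156 CPM in HF, 139 and 148 in HB, log2 change -0.21). Neutrophil markers were called lower for 2 of 2 tested, at a summed 4.07 and 25.1 CPM in HF and 1.94 and 2.61 in HB, and Ly6g was at 0 in every mRNA library. The part of these cells in the results below was not tested, and in bulk tissue fewer cells of a type and less RNA per cell cannot be told apart.

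Because ATF4 is a known regulator of this family, the RefSeq promoter windows (GRCm38.p6, 250 bases before to 50 bases after the transcript start) were searched for its binding element. A window was matched for 27 members, 13 cytosolic and 14 mitochondrial. The element searched was TGATGNAA on either strand, read on the other strand as TTNCATCA. It was in the windows of 5 of 13 cytosolic members and 0 of 14 mitochondrial ones, and in 3.97% of all 32851 windows. For each of the 5 genes the match nearest the transcript start is given, 5′ to 3′ on the gene's own strand, with the element in capitals; positions count from the transcript start, which is 1, to the element's first printed base.
Aars, position 10, chr8:111033840-111033869, plus strand: agcgggtcactTTTCATCAgagcgctctga
Gars, position -30, chr6:55037960-55037989, plus strand: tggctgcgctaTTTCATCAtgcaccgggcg
Iars, position 8, chr13:49682126-49682155, plus strand: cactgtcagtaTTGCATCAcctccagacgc
Tars, position -15, chr15:11399655-11399684, minus strand: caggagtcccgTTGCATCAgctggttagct
Yars, position 4, chr4:129189895-129189924, plus strand: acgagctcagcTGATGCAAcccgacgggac
These are matches of letters, and binding was not measured. In total mRNA, Gars was called higher in HB (log2 change 1.08), while Aars (0.43), Iars (1.04), Tars (0.19) and Yars (-0.33) were not called. Whether the diet effects of these 5 genes differ was not tested.

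Length-scaled levels (RPKM, reads per kilobase of transcript, scaled to library size) set the classes apart in total mRNA. The median cytosolic synthetase stood at 14.6 and 15.9 RPKM in the HF libraries and 15.7 and 13.3 in HB. The median mitochondrial synthetase stood at 6.72 and 7.94 in HF and 6.32 and 6.41 in HB. Aars, the alanyl enzyme, was the highest cytosolic member in each library, with 54.1 and 46.7 RPKM in HF and 54.2 and 58.8 in HB. Iars, the isoleucyl enzyme, was the lowest in 3 of 4 libraries, with 2.56 and 3.64 in HF and 7.26 and 3.45 in HB; Lars was lowest in the other, at 5.76. Among mitochondrial members, Lars2 was the highest in HF at 26.0 and 30.4 RPKM, while in HB the highest were Iars2 (17.8) in the first library and Fars2 (17.6) in the second. Mars2 and Pars2, the methionyl and prolyl enzymes, lay at the bottom: Mars2 had 0.625 and 0.851 RPKM in HF and 1.42 and 0.691 in HB, and Pars2 had 0.697 and 0.275 in HF and 1.01 and 0.683 in HB.

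The first comparison asked which synthetase mRNAs differed when Betaine was added to the high-fat diet. Of 36 members, 6 rose and 2 fell in HB, which is 22.2%, and 21.4% of the 12817 genes tested were called, so the family as a whole was called about as often as genes in general. The cytosolic Farsb, Gars and Kars rose. Among mitochondrial members, Yars2, Iars2 and Fars2 rose, and Lars2 and Hars2 fell. The median log2 change was 0.28 for cytosolic and -0.09 for mitochondrial members, against 0.01 for all genes tested.

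Gars, which charges glycine in both compartments, had 21.0 and 23.2 CPM in HF and 50.6 and 43.9 in HB, a log2 change of 1.08 (SE 0.27, edgeR adjusted p = 0.0205). Kars, the lysyl enzyme of the multi-synthetase complex, had 24.4 and 32.9 CPM in HF and 59.7 and 53.5 in HB (log2 change 0.97, SE 0.28, adjusted p = 0.0318). For both genes each HB library lay above each HF library. Farsb encodes the beta subunit of the phenylalanyl enzyme and had 13.6 and 14.4 CPM in HF and 38.1 and 22.7 in HB (log2 change 1.10, SE 0.33, adjusted p = 0.0349). Its partner Farsa, the alpha subunit, lay on the other side without passing the threshold, with 53.6 and 46.7 CPM in HF and 23.0 and 32.3 in HB (log2 change -0.87, SE 0.29, adjusted p = 0.0521). The diet groups of neither subunit overlapped. Vars, the valyl enzyme, had the next lowest cytosolic value, at 94.2 and 88.0 CPM in HF and 43.0 and 69.4 in HB (log2 change -0.71, adjusted p = 0.116). The 17 cytosolic members that were not called ran from the -0.87 of Farsa to the 1.04 of Iars, which had 11.1 and 16.1 CPM in HF and 37.7 and 18.8 in HB (adjusted p = 0.0667).

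Lars2, the mitochondrial leucyl enzyme, fell the furthest of the 36, from 105 and 126 CPM in HF to 33.4 and 39.6 in HB (log2 change -1.68, SE 0.28, edgeR adjusted p = 0.00599). Hars2, the mitochondrial histidyl enzyme, fell from 75.4 and 66.3 CPM to 30.3 and 34.3 (log2 change -1.15, SE 0.27, adjusted p = 0.0161). Neither gene's diet groups overlapped. Yars2, the mitochondrial tyrosyl enzyme, rose from 5.51 and 6.49 CPM to 21.3 and 17.4 (log2 change 1.68, SE 0.32, adjusted p = 0.00835). Iars2 rose from 24.2 and 33.2 CPM to 74.3 and 54.4 (log2 change 1.15, SE 0.30, adjusted p = 0.0213), and Fars2 from 16.1 and 19.2 CPM to 37.3 and 41.4 (log2 change 1.14, SE 0.29, adjusted p = 0.0194). Again each HB value of these genes was above each HF value. The 11 mitochondrial members not called ran from -0.89 for Aars2 (64.6 and 49.9 CPM in HF, 25.8 and 36.4 in HB, adjusted p = 0.0528) to 1.06 for Pars2.

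**Figure D1:**
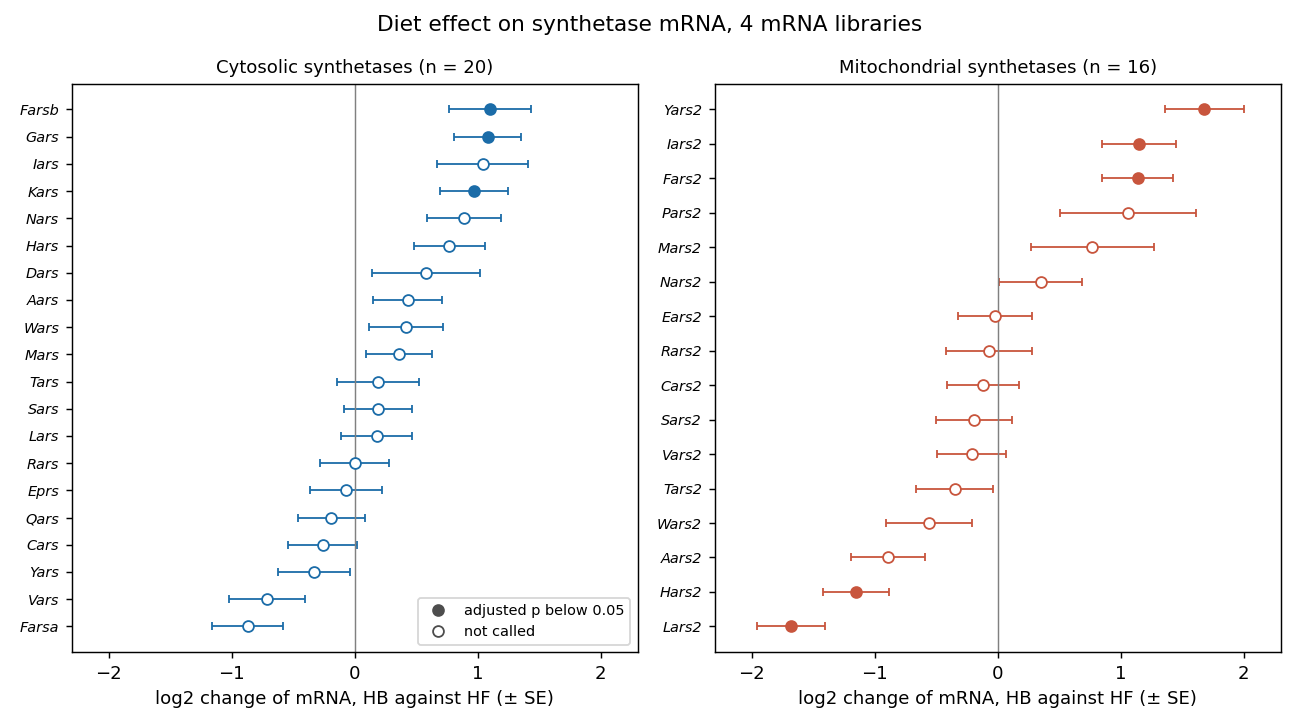
Log2 change of mRNA between HB and HF (horizontal axis) for each cytosolic (left) and mitochondrial (right) synthetase, from the fit of 4 mRNA libraries; points are estimates, bars are 1 SE and filled points passed the threshold. Cytosolic values run from -0.87 to 1.10 and mitochondrial ones from -1.68 to 1.68, with Lars2 and Yars2 at the ends.

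The calls rested on few libraries and on the scaling. Lars2 was the only member still called when any 1 of the 4 mRNA libraries was left out; leaving out either HF library, or HB replicate 1, gave 0 cytosolic calls, and leaving out HB replicate 2 gave 9. The share of all genes called moved too, to 6.05% without HF replicate 1, 12% without HF replicate 2, 6.14% with HB replicate 1 left out and 23.6% with HB replicate 2 left out. With library totals in place of TMM factors, the median of all genes moved by -0.29, the cytosolic median went to -0.01, and the split became 2 members higher and 5 lower; with DESeq2's size factors it was 6 and 4. The edgeR fit of all 7 libraries, whose dispersion was 0.464 against 0.0644, called 0 of the 12634 genes tested, members included, with 7 of the 36 at an unadjusted p under 0.05.

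Enzymes that charge the same amino acid in the cell body and in mitochondria were paired by gene name, which gave 13 pairs. The phenylalanyl, glutamyl and prolyl enzymes were left out, since the cytosolic genes Farsa, Farsb and Eprs do not match by name. The cytosolic member had the higher RPKM in 9 or 10 of the 13 pairs in each library, and Iars2 and Lars2 exceeded their cytosolic counterparts in all 4. The order of the histidyl pair differed between diets. Hars stood at 9.10 and 9.65 RPKM in HF and 15.4 and 11.3 in HB, and Hars2 at 24.4 and 20.9 in HF and 8.17 and 8.83 in HB. The Hars to Hars2 ratio was thus 0.373 and 0.461 in HF and 1.89 and 1.28 in HB. These genes are neighbours whose annotated spans share 4 bases, and whether the counting used the strand is not given in the sources used here. For leucine, the ratio of Lars to Lars2 went from 0.272 and 0.190 to 0.837 and 0.815, while Lars itself was not called (log2 change 0.18). The tyrosyl pair went the other way, with a Yars to Yars2 ratio of 4.46 and 2.64 in HF and 0.804 and 0.941 in HB. For alanine the ratio of Aars to Aars2 was 2.77 and 3.17 in HF and 8.30 and 6.71 in HB. The difference in diet effect between partners was not tested.

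**Figure D2:**
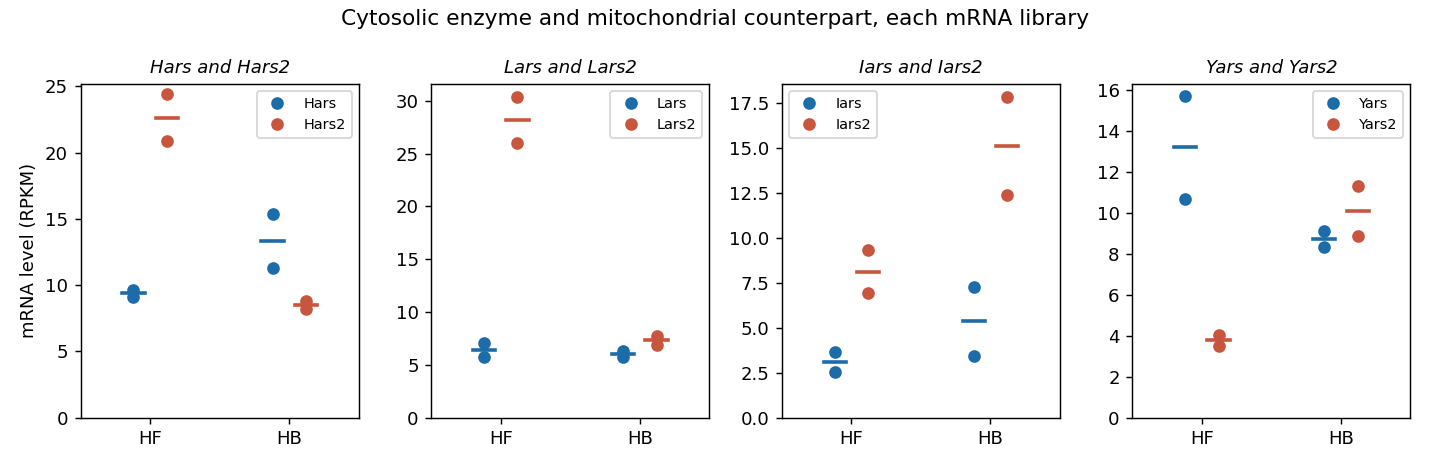
RPKM in each mRNA library (points) and group mean (bars) for 4 enzyme pairs, cytosolic in blue and mitochondrial in red, by diet. Hars2 and Lars2 lie above their partners in HF, at 20.9 RPKM or more, and below 9 RPKM in HB, while Iars2 lies above Iars in all 4 libraries and Yars2 above Yars in HB.

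Proteins that work beside the synthetases were looked at in the same fit. Their counts are to be read against the 21.4% of all genes called in that fit (11.3% higher and 10.1% lower). Of the 8 complex members among the cytosolic enzymes, 1 was called (Kars, 12.5%), and of the 12 outside the complex 2 were (16.7%); the difference was not tested. The 3 scaffold proteins were not called: Aimp1 had a log2 change of 0.59 (adjusted p = 0.183), Aimp2 0.54 (0.232) and Eef1e1 0.88 (0.11). Of 13 partners of mitochondrial charging and translation, 3 rose (23.1%, against 11.3% of all genes called higher) and 0 fell. The difference from all genes was not tested. Gfm1, a mitochondrial elongation factor, had 23.9 and 17.1 CPM in HF and 117 and 70.8 in HB (log2 change 2.18, edgeR adjusted p = 0.00477). Tufm, which carries charged tRNA to the mitochondrial ribosome, had 33.1 and 45.9 CPM in HF and 147 and 141 in HB (log2 change 1.86, adjusted p = 0.00486). Gatb, a subunit of the enzyme that makes glutaminyl-tRNA in mitochondria, had 28.7 and 26.0 CPM in HF and 59.7 and 61.5 in HB (log2 change 1.13, adjusted p = 0.0161). Of 10 genes of tRNA maturation and proofreading, 2 rose (20.0%, against the same 11.3%) and 0 fell. The 2 were the D-aminoacyl-tRNA deacylases Dtd2 (log2 change 1.49) and Dtd1 (1.13). Of 17 amino acid response genes tested out of 23 listed, Eif4ebp1, an inhibitor of cap-dependent translation, rose (1.19), and Ddit3, a stress transcription factor, fell (-0.97). That is 11.8% called either way, against 21.4% of all genes. Atf4 mRNA itself was not called, with 170 and 154 CPM in HF and 105 and 119 in HB (log2 change -0.55, edgeR adjusted p = 0.176). Its RNC level lay on the other side, also not called, at 133 and 122 CPM in HF and 241 in the summed HB sample (log2 change 0.92). The log2 ratio of RNC to total mRNA for Atf4 was -0.35 in HF, not called, and 1.10 in HB, called higher. The change of that ratio between diets was 1.45 and was not called.

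The second comparison set HB against HF in ribosome-bound mRNA. Of 36 members, 3 fell and 1 rose, which is 11.1%, against 11.5% of the 12634 genes tested (3.94% lower and 7.61% higher). Eprs, Hars and Nars2 were lower in HB and Pars2 was higher. Eprs, the glutamyl-prolyl enzyme of the multi-synthetase complex, had 216 and 229 CPM in HF and 64.2 in the summed HB sample (log2 change -1.79, SE 0.35, edgeR adjusted p = 0.0344). Its total mRNA was not called, with 111 and 88.6 CPM in HF and 112 and 80.7 in HB (log2 change -0.07, adjusted p = 0.884). The other calls set reads against none. Hars had 173 and 128 reads in HF and 0 in both HB libraries, although its total mRNA had 691 and 406 reads in HB (adjusted p = 0.0201). Nars2, the mitochondrial asparaginyl enzyme, had 52 and 92 reads in HF and 0 in both HB libraries (adjusted p = 0.0201). Pars2 had 0 reads in both HF libraries and 35 and 69 in HB (adjusted p = 0.0227). No fold is given for genes with a group at 0.

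Zeros need care in these libraries, since genes with 1 to 19 reads made up 2.74% to 4.34% of detected genes in RNC against 22.5% to 24.3% in mRNA. Whether low counts were removed from the RNC tables before deposit is not given in the sources used here, so a 0 may not mean that no read was found. Members were listed at 0 in 4 and 6 cases in the HF RNC libraries and in 5 and 5 cases in HB, or 11.1% to 16.7%, against 26.0% to 34.8% of all tested genes. In HF, 6 members were at 0 in 1 library and had 51 to 142 reads in the other: Dars, Iars, Fars2, Rars2, Wars2 and Yars2. Dars, the aspartyl enzyme, had 51 and 0 reads under HF, 306 and 411 under HB (log2 change 3.50, SE 1.93, edgeR adjusted p = 0.359). Iars had 110 and 0 reads under HF, 0 and 0 under HB, and Yars2 had 0 and 66 in HF and 0 and 0 in HB. Mars2 had no RNC reads in any library. Among members with reads in both diets, Aars2 had the lowest value that was not called, with 219 and 129 CPM in HF and 47.9 in HB (log2 change -1.86, adjusted p = 0.0969), and Farsa had 35.9 and 35.2 CPM in HF and 67.1 in HB (log2 change 0.92, adjusted p = 0.273). The edgeR fit of the RNC libraries alone called 0 genes, with 3 of the 36 members at an unadjusted p under 0.05, and without HF RNC replicate 1 the 7-library design called 12 members and without replicate 2 it called 8, fits in which no RNC group has a replicate and which called 38.5% and 39.3% of all genes.

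**Figure D3:**
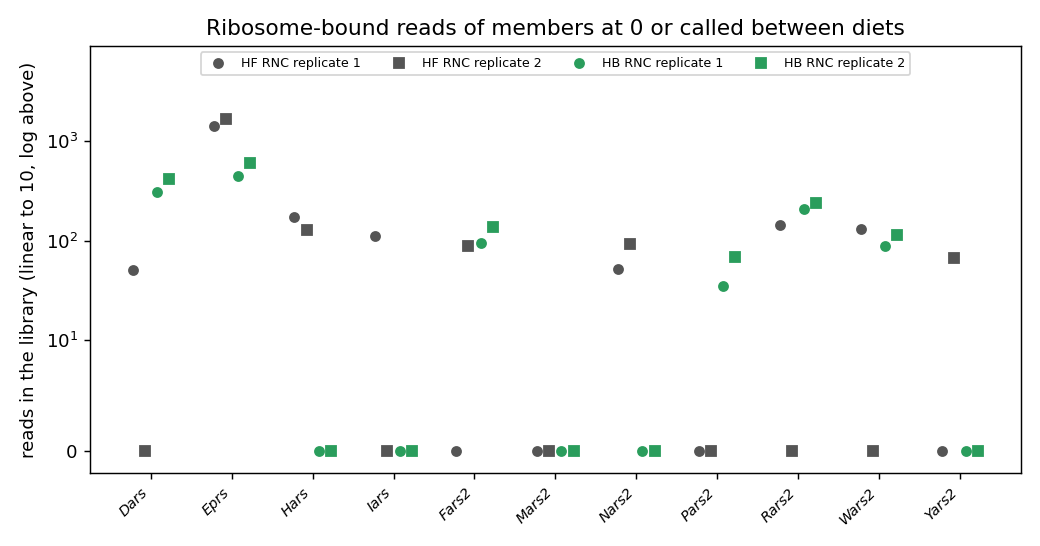
Reads in each RNC library (vertical axis, linear to 10 and logarithmic above) for members at 0 in at least 1 RNC library or called between diets; grey is HF, green is HB, circles are replicate 1 and squares replicate 2. Hars and Nars2 have reads in both HF libraries and 0 in both HB libraries, Pars2 has the reverse, and 6 members have reads in only 1 HF library.

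The third comparison was the ratio of RNC to total mRNA inside each diet, a measure of how much of a gene's mRNA was recovered with ribosomes relative to other genes. In HF, 12 of 36 members (33.3%) were called higher in RNC than in mRNA, against 3.92% of all genes tested, and 3 were called lower, against 24.7%. Both classes took part, with 7 of 20 cytosolic and 5 of 16 mitochondrial members higher. The cytosolic ones were Cars, Sars, Lars, Eprs, Gars, Rars and Aars, and the mitochondrial ones were Ears2, Cars2, Aars2, Tars2 and Vars2. Median log2 ratios were 0.27 and 0.08 for the classes, against -0.56 for all genes.

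The cysteinyl enzymes were high in both compartments. Cars had 45.5 and 43.0 CPM in HF mRNA and 150 and 205 in HF RNC (log2 ratio 2.00, SE 0.28, edgeR adjusted p = 0.0103). Cars2 had 18.9 and 18.6 CPM in mRNA and 66.0 and 49.3 in RNC (log2 ratio 1.62, SE 0.31, adjusted p = 0.0173). Ears2, the mitochondrial glutamyl enzyme and the longest member at 6528 bases, had 16.7 and 14.3 CPM in mRNA and 59.3 and 63.5 in RNC (log2 ratio 1.99, SE 0.33, adjusted p = 0.0116). Sars, the seryl enzyme, had 54.8 and 72.5 CPM in mRNA and 203 and 183 in RNC (log2 ratio 1.60, SE 0.24, adjusted p = 0.0103). In each of these genes the RNC values lay above the mRNA values without overlap. Aars2 (64.6 and 49.9 CPM in mRNA, 219 and 129 in RNC) and Tars2 (52.6 and 46.1 against 155 and 122) had log2 ratios of 1.60 and 1.49. Lars (26.6 and 22.2 against 52.6 and 61.6) and Eprs (111 and 88.6 against 216 and 229) had log2 ratios of 1.23 and 1.16. The remaining higher calls were Vars2 (28.6 and 35.7 against 61.8 and 80.4, log2 ratio 1.14), Gars (21.0 and 23.2 against 52.9 and 42.2, 1.10), Rars (27.8 and 29.6 against 61.5 and 55.7, 1.03) and Aars (198 and 175 against 299 and 339, 0.77).

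Nars, the cytosolic asparaginyl enzyme, stood at the other end. It had 46.9 and 51.3 CPM in HF mRNA but 7.95 and 9.13 in HF RNC (log2 ratio -2.52, SE 0.36, edgeR adjusted p = 0.0103). In HB it had 112 and 71.4 CPM in mRNA and 8.95 in RNC (log2 ratio -3.36, SE 0.49, adjusted p = 0.0181). Its total mRNA was 0.89 higher in HB on the log2 scale without being called (adjusted p = 0.0535), and its RNC level differed by 0.07. With the trend of counts over transcript length removed, the HF ratio call of Nars was lost and the HB call was kept. Over the alternatives run, its log2 ratio ranged from -2.63 to -0.94 in HF and from -3.63 to -2.38 in HB. The other lower calls in HF were Mars2, with 21 and 29 mRNA reads, and Pars2, with 25 and 10, both listed at 0 in RNC.

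In HB, 6 members (3 of each class) were called higher in RNC than in mRNA, against 6.36% of all genes, and 4 were called lower, against 22%. These 10 members are to be read against 28.4% of all genes called either way. Cars, Rars, Sars, Cars2 and Tars2 were called higher in both diets, and Sars2 in HB. Tars2, the mitochondrial threonyl enzyme, had the highest value, with 29.7 and 48.5 CPM in mRNA and 248 in RNC (log2 ratio 2.66, SE 0.38, edgeR adjusted p = 0.0181). Cars2 had 16.7 and 18.3 CPM in mRNA and 81.2 in RNC (log2 ratio 2.22), and Cars 32.6 and 42.0 against 164 (2.14). Sars2 had 13.3 and 11.3 CPM in mRNA and 44.5 in RNC (log2 ratio 1.86, adjusted p = 0.0456), Sars had 70.3 and 76.5 against 234 (1.67), and Rars had 30.4 and 27.6 against 77.3 (1.42). The lower calls were Nars, and Hars, Mars2 and Nars2, which had 0 HB RNC reads; Iars and Yars2, also at 0 there, were not called. Medians were 0.10 for cytosolic and 0.72 for mitochondrial members, against -0.71 for all genes.

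**Figure D4:**
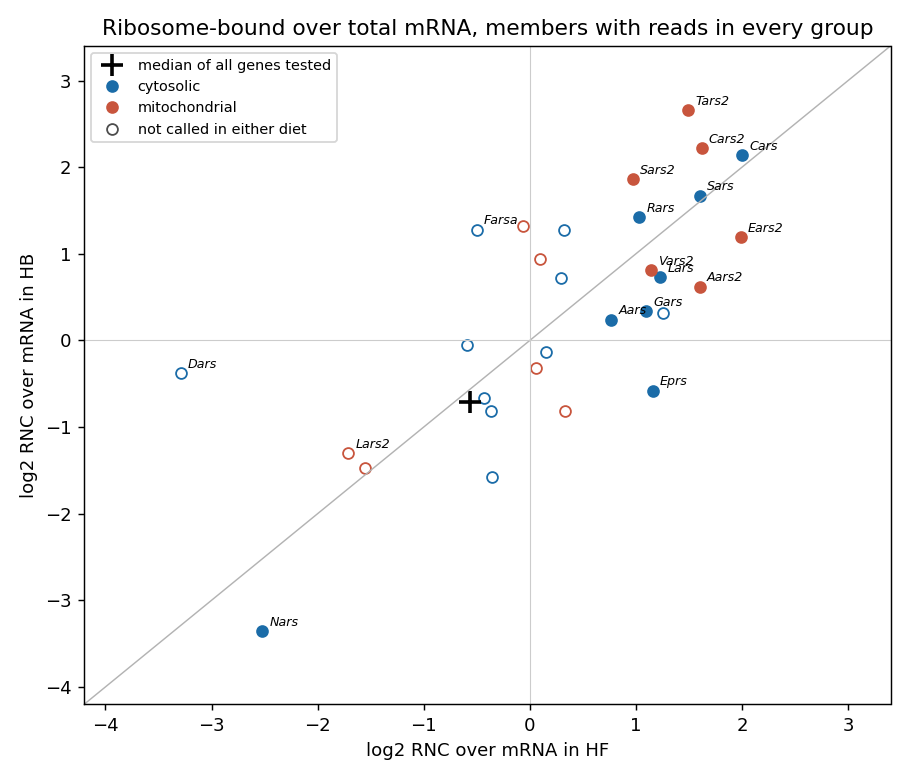
Log2 ratio of RNC over total mRNA in HF (horizontal) and HB (vertical) for members with reads in every group; filled points were called in at least 1 diet, the cross is the median of all genes tested (-0.56 and -0.71) and the diagonal marks equal ratios. Most members lie above and to the right of the cross, with Cars, Cars2, Sars and Tars2 high in both diets and Nars low in both. Unlike the points, the cross includes genes listed at 0 in RNC. The medians of genes with reads in all 7 libraries were -0.06 in HF and -0.05 in HB.

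Genes listed at 0 in RNC pull the median of all genes down, so the ratio was also read over genes with reads in all 7 libraries. Of the 26 members with reads in every library, 12 were called higher in HF, against 7.05% of 6592 such genes, and 1 lower, against 8.63%; their median was 0.87 against -0.06. In HB, 6 of the 26 were called higher, against 10.2%, and 1 lower, against 10.5%, with a median of 0.48 against -0.05. Transcript length was a further difference between the kinds of library. The median length was 2643 bases for cytosolic members, 3105 for mitochondrial ones and 2754 for all genes tested. With the length trend removed the HF medians became 1.86 and 1.82 against 0.98 for all genes, and 20 members were called higher against 26.2% of all genes. All calls of the ratio were lost when 1 mRNA library of that diet was left out (0 genes called in edgeR; 8 to 11 members at an unadjusted p under 0.05), and none of the called members changed sign. Without HF RNC replicate 1 or 2, fits in which no RNC group has a replicate called 23 and 21 members in HF, and 60.3% and 62.2% of all genes.

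The change of this ratio between diets was called for 2 of 36 members, against 10.5% of all genes, and both were lower in HB, against 4.02%: Hars and Nars2 (edgeR adjusted p = 0.0319 each), whose HB RNC reads were 0. Both calls were lost without any 1 mRNA library, as were those of all genes (0 called in edgeR; 4 to 7 members at an unadjusted p under 0.05). Without HF RNC replicate 1 or 2, 10 or 7 members were called, beside 37.5% or 38.5% of all genes. Eprs had a change of -1.74 (SE 0.42, adjusted p = 0.0765), the lowest among members with reads in every group. Dars had the highest such value at 2.91 (SE 2.48, adjusted p = 0.627), followed by Farsa at 1.78 (SE 0.48, adjusted p = 0.106). Among mitochondrial members with reads in every group, values ran from -1.14 for Iars2 to 1.38 for Rars2.

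The fourth comparison concerned m6A, a methyl mark on adenosines of mRNA that is known to cluster near stop codons. Peaks were deposited for each library and numbered 22060 and 24141 in HF and 22086 and 25718 in HB, each with a fold enrichment of at least 6.00 given by the authors. A peak was assigned to a member when any part of it overlapped the gene's annotated span, without strand, and exons and introns were not told apart here. The Aars span starts at chr8:111027778, upstream of the transcript start used for its promoter window. Its peaks, 1 and 2 in the HB libraries, all lie upstream of that transcript start and are counted below. In the HF libraries 24 and 26 members had a peak, against 59.7% and 62.7% of tested genes, and in the HB libraries 31 and 24 did, against 59.1% and 59.6%. A peak in every library was found for 15 members, 7 cytosolic and 8 mitochondrial, or 41.7% against 36.2% of 12298 tested genes. Qars and Yars2 had no peak in any library, and 17.6% of tested genes had none. Median spans were 27.0 kb for cytosolic members, 25.1 kb for mitochondrial ones and 22.3 kb for tested genes.

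Most peaks did not recur. Overlapping peaks were merged into sites, of which 204 lay in members. Of these, 169 (82.8%) came from 1 library, as did 83.9% of the 74555 sites formed from all deposited peaks, inside genes or not. Fars2, whose span is 420 kb, had 27 sites of which 26 came from 1 library. Sites in all 4 libraries were found in Mars2, Nars and Wars2, which is 1.47% of the members' sites against 2.63% of the sites from all deposited peaks. Over 3 libraries, 4 or 6 sites were shared with HF replicate 1 or 2 left out, and 7 or 6 with HB replicate 1 or 2 left out. The Mars2 site, at chr1:55237929-55239221, had the strongest enrichment of these, with folds of 31.3 and 82.6 in HF and 22.1 and 18.1 in HB. Both HF values were above both HB values there, while the Wars2 site, at chr3:99216402-99217310, had folds of 7.26 and 7.09 in HF and 23.0 and 9.48 in HB. The Nars site had folds of 7.88 and 12.9 in HF and 7.63 and 20.9 in HB, so its diet groups overlapped.

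Sites present in both libraries of 1 diet and neither of the other numbered 3 for HF and 6 for HB among members, or 9 of 204. Among the sites from all deposited peaks, inside genes or not, such sites were 2.20% for HF and 1.74% for HB. The HF sites were in Eprs (folds of 6.30 and 8.53), in Hars (7.70 and 14.97) and in Iars2 (9.86 and 6.51). The Iars2 site was centred 458 bases from the annotated gene end. The HB sites were in Cars (15.8 and 6.87), Iars (16.4 and 7.03), Iars2 (13.4 and 8.64), Aars2 (10.8 and 6.76, centred 243 bases from the gene end) and at a pair of places in Farsb (14.5 and 10.3, and 17.8 and 16.0). In total mRNA, of the genes with HF sites, Iars2 was called higher in HB, and Eprs and Hars were not called (log2 changes of -0.07 and 0.77). Of those with HB sites, Farsb and Iars2 were called higher in HB mRNA, and Cars, Iars and Aars2 were not called (log2 changes of -0.26, 1.04 and -0.89). In RNC, Eprs and Hars were called lower in HB, where Hars was listed at 0. Iars2 and the other genes with HB sites were not called in RNC. Of all genes tested, 11.3% were called higher in mRNA and 3.94% lower in RNC. Iars2 holds a site of each kind. Whether the mark and these levels are related was not tested, and 2 libraries a diet allow no exact p under 0.05. Near the gene end, Mars had a site in 3 libraries, centred 146 bases from the end (folds of 9.64 in the second HF library and 10.1 and 7.97 in HB), which also overlaps the neighbouring gene Ddit3. Yars had a site in 3 libraries, centred 194 bases from its end (8.23 and 6.30 in HF, 6.10 in the second HB library). Gars had one in 2 libraries, centred 201 bases from its end (7.47 in the first HF and 6.15 in the first HB library).

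**Figure D5:**
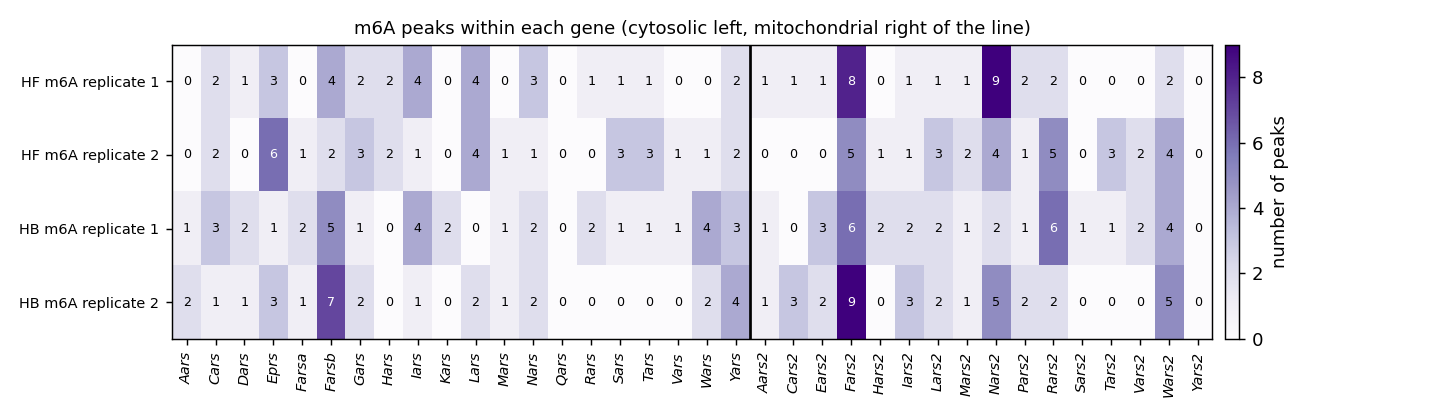
Number of m6A peaks overlapping each member's span (columns, cytosolic left and mitochondrial right of the line) in each m6A library (rows). Darker cells hold more peaks. Fars2 and Nars2 reach 9 peaks in a library, Hars has 2 peaks in each HF library and 0 in HB, and Qars and Yars2 have 0 throughout.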

How the data were processed

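Total mRNA, RNC mRNA and m6A libraries of mouse liver, 2 per diet and kind, were analysed, and the 4 m6A inputs were left out (not analysed here). The mRNA and RNC read counts were deposited as raw counts per gene with splice variants merged, from reads mapped to RefSeq transcripts, per the labels. The deposited RPKM values are, per the file headers, those counts per kilobase of transcript and scaled to library size. The m6A peaks were deposited per library with a summit signal (pileup), −log10 values of p and q, and an enrichment ratio (fold), per the file headers. Per the labels' protocols, Trimmomatic 0.36 trimmed and TopHat 2.0.13 aligned the m6A reads. The mm10 build, MACS2 2.1.0.20151222, HOMER 4.8, HTSeq 0.6.0, HISAT2 2.0.4 and cutadapt 1.9.3 are named, without roles, per the submitters' processing notes.

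Counts of all genes were fitted in R 4.3.3 with edgeR 4.0.16, which loads limma 3.58.1 (TMM scaling, filterByExpr with a minimum count of 10, quasi-likelihood F test, Benjamini-Hochberg adjustment over all genes tested, threshold 0.05). A member is called, or said to rise or fall, where it passed. The diet effect on mRNA used the 4 mRNA libraries (12817 genes, 2 residual degrees of freedom). All other contrasts used 7 libraries (12634 genes, 3 residual degrees of freedom), with the HB RNC pair summed and its lone value assumed to vary like the other groups. CPM values are TMM-scaled over these 7 libraries. In simulated data the fits recovered most seeded changes at the spread of the mRNA libraries and none at the spread of the 7-library fit. Every simulated gene had the same spread, unlike genes in the data, so these runs do not tell how reliable the calls of the 7-library fit are. For promoters, the match nearest the transcript start is given per gene, and 1 further match is not reported here. Peaks were counted where they overlapped RefSeq gene spans (GRCm38.p6), in place of the exons planned, since exon positions were not used here. Overlapping peaks were merged into sites. Library depth and pooled samples limit the precision.

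Members, gene lists and tests were chosen with earlier results of these data known. For members called in a contrast, values were given for the libraries of that contrast, with the HB RNC pair as a sum or apart. The same was done for the 2 largest mRNA changes each way in each class. The highest and lowest mRNA RPKM of each class were named, and folds were given for sites in both libraries of 1 diet only. From each other list, up to 4 called genes, or up to 2 with the smallest p, were named; all 3 scaffold proteins, Atf4 and members in the text on promoters, pairs and shared m6A sites were named in addition, after their values were seen. Alternatives were DESeq2 1.42.0, its size factors, library totals, no filter, a length trend removed, a replicate block, the HB RNC pair kept apart, each library left out, and a stricter m6A fold.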

Additional observations from a re-analysis of the deposited data

Results flagged for a closer look

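For 2 members the change of the ratio of RNC to total mRNA between diets passed the threshold in a test of that change. Hars had 173 and 128 RNC reads in HF and 0 in both HB libraries, while its total mRNA counted 211 and 227 reads under HF, 691 and 406 under HB (edgeR interaction, adjusted p = 0.0319). Nars2 had 52 and 92 RNC reads in HF and 0 in both HB libraries, while total mRNA counted 168 and 121 reads under HF, 360 and 185 under HB (adjusted p = 0.0319). The HB RNC pair counts as 1 sample, so each call sets a single value of 0 against 2 HF libraries. Between the HF RNC libraries themselves, 1689 and 1109 genes, by direction, were at 0 in 1 library with over 20 reads in the other. Both calls were lost when any 1 mRNA library was left out, and the cause of the zeros was not tested.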

How the results depend on the processing

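No called value of a named member changed sign under the alternatives run. Counts of called members moved by over 1.5 times as follows, the cause not tested; the share of all genes called is given beside each. For mRNA, the 3 cytosolic calls (21.4% of all genes) became 6 with no filter (21.5%), 5 with DESeq2 (23.6%), 7 with the length trend removed (24.3%) and 0 in the 7-library fit (0 genes), where the 5 mitochondrial calls also became 0. For RNC, the 2 cytosolic and 2 mitochondrial calls (11.5%) became 0 and 0 in the RNC libraries alone (0 genes), and the mitochondrial ones 5 with DESeq2 (22.6%) and 4 with the HB RNC pair kept apart (19.1%). For the ratio in HF, 8 cytosolic calls (28.6%) became 4 with no filter (21.2%). For the ratio in HB, 5 cytosolic calls (28.4%) became 9 with DESeq2 (36.6%), 9 with the length trend removed (33.2%) and 8 with the HB RNC pair apart (43%), where 5 mitochondrial calls also became 8. For its change, 1 cytosolic call (10.5%) became 4 with DESeq2 (17.5%), 2 with the length trend removed (10.9%) and 3 with the pair apart (16.2%), and 1 mitochondrial call became 2 with library totals (10.6%), DESeq2 and the pair apart. That split was 0 higher and 2 lower with TMM and 1 and 2 with library totals, which moved the median of all genes by 0.16 and 0.37 for the ratio in HF and HB and by 0.24 for its change. At a fold enrichment of at least 10, members with a peak in every m6A library went from 7 to 1 and from 8 to 4 in the classes, and sites from 3 to 1.

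With each library left out in turn, counts of cytosolic and mitochondrial calls ranged from 0 to 9 and 1 to 6 for mRNA, 2 to 4 and 2 to 8 for RNC, 0 to 12 and 0 to 11 for the ratio in HF, 0 to 5 and 0 to 5 for the ratio in HB, and 0 to 5 and 0 to 5 for its change; m6A sites in every library ranged from 4 to 7. The shares of all genes called ranged from 6.05% to 23.6% for mRNA, 11.3% to 39.3% for RNC, 0% to 62.2% and 0% to 27.5% for the ratio in HF and HB, and 0% to 38.5% for its change. The replicate numbers are shared between groups, but the labels tie them to no common animal, and deviations of same-numbered libraries correlated at -0.11 to 0.0665. With a replicate block, the mRNA counts stayed within 1.5 times (10 members in all), the cytosolic calls of the ratio in HB became 8 (37.8% of all genes), and the calls of its change became 3 cytosolic and 2 mitochondrial (13.5%). Depth limits the RNC comparison, where few genes were listed with low counts, and m6A peaks carry no read counts of their own.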
